A study of Homo sapiens with 42 samples.

Results

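Nuclear RNA of LM2 cells was compared with nuclear RNA of Par cells in 6 libraries, 3 from each line, of the 42 libraries of the series. Both lines are MDA-MB-231, a human breast cancer line grown in culture. Per the labels, Par cells are poorly metastatic and LM2 cells are highly metastatic to the lungs. Cells of both lines were grown in the same high-glucose medium with serum to the same stage of confluence, and none of these 6 libraries carries a drug or a knockdown. The members are the 3 LM2 and 3 Par nuclear libraries by their labels, paired by replicate number, so no measured value chose them. The series also holds the 6 cytoplasmic libraries of the same lines, used below to test differences between fractions. Nothing in the labels ties a replicate to its own culture. The p-values therefore measure only the spread between these libraries, which may be technical, and the labels give 1 line of each kind, so line and metastatic capacity cannot be told apart.

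RNA was read at its 3′ end with the QuantSeq REV kit, which is meant to start sequencing at the poly(A) tail. A read is therefore taken to mark the end of 1 transcript, but whether every read here does so was not tested. Nuclear polyadenylated RNA holds transcripts that are new, waiting for export or retained, whereas cytoplasmic RNA is mostly mRNA open to translation. LM2 is known as a subline of MDA-MB-231 obtained by selection for growth in the lungs of mice, and earlier studies of such sublines named genes of matrix breakdown, cytokine signalling and cell adhesion. In bulk samples, fewer cells carrying an RNA and less of that RNA per cell cannot be told apart.

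The 6 nuclear libraries held 0.798, 1.21 and 1.35 M counts (M, 1e6; LM2, replicates 1 to 3) and 1.21, 1.24 and 1.10 M counts (Par). Both libraries numbered 2 stood apart from the rest. The first principal component of the log2 levels carried 69.3% of the variance and placed both of them at one side, while the second, with 15.5%, separated the lines. A set of 886 genes, 12.3% of the 7197 tested, was more than 2-fold higher in the libraries numbered 2 than in the others. This set was defined after the libraries were seen. Its share of the reads was 6.54, 41.9 and 14.5% in LM2 replicates 1 to 3 and 4.39, 39.2 and 7.65% in Par replicates 1 to 3. The share was thus higher in LM2 within each of the 3 pairs. Reads of long noncoding genes moved with it, at 2.17, 11.3 and 4.26% in LM2 and 1.501, 10.5 and 2.38% in Par, and 301 of the 389 long noncoding genes tested belonged to the set. The share of reads on the mitochondrial genome was lower in the libraries numbered 2, at 2.77 and 2.78%, than in the other 4, at 4.21 to 4.56%. The scaled level was not: counts per 1e6 after TMM scaling, summed over the measured mitochondrial genes, were 37370, 37602 and 37991 in LM2 and 38974, 37966 and 37992 in Par.

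**Figure D1:**
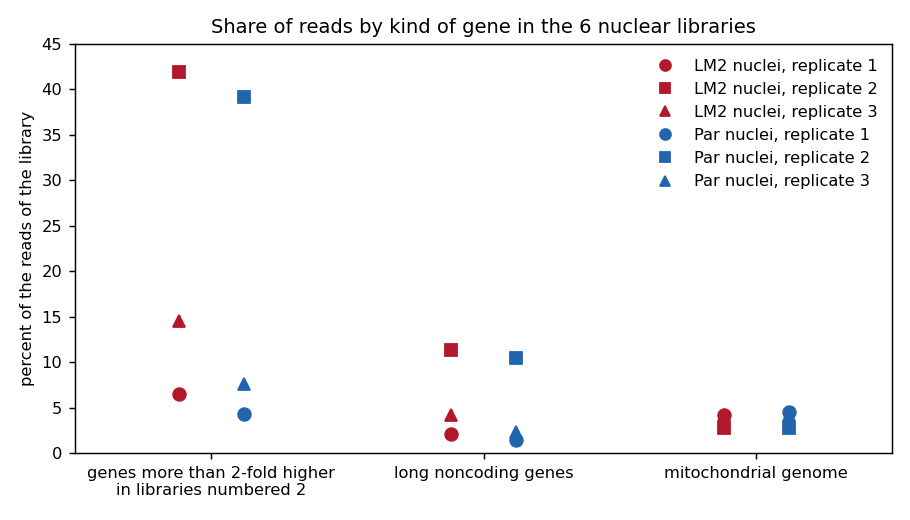
Percent of the reads of each nuclear library (vertical axis) that fell on the 886 genes more than 2-fold higher in the libraries numbered 2, on long noncoding genes and on the mitochondrial genome. Points are single libraries, coloured by line and shaped by replicate number, and the squares (replicate 2) stand apart at 41.9 and 39.2% for the first set.

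The transcript ends that carry these reads differed in sequence, and 4 of them are shown to let the difference be seen. Each is the last 30 bases of the gene's most used transcript end in GENCODE 29 (GRCh38), 5′ to 3′, with a poly(A) signal (AATAAA or ATTAAA) in capitals. CSF3, MXRA8 and KRT19 changed between the lines and are not in the set, whereas TUBD1 is in it.
CSF3, chr17:40017784-40017813, plus strand: aacttcaggatAATAAAgtgtttgcctcca
MXRA8, chr1:1352691-1352720, minus strand: catcacAATAAAgtccccatctgattttta
KRT19, chr17:41523617-41523646, minus strand: cctgccAATAAAaatttatggtccaaggga
TUBD1, chr17:59860013-59860042, minus strand: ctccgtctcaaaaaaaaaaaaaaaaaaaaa
The first 3 hold AATAAA and end 13 to 18 bases after it, and the last holds no signal. Among 4029 genes whose most used entry is a transcript end of the same GENCODE version, AATAAA or ATTAAA was found on the transcript strand in the last 30 bases of 58.2%. The share was 14.4% of 661 genes of the set and 66.8% of 3368 other genes. A run of 8 A, a search chosen after ends of the set were read, was found in 29.2% of the set and 4.33% of the others. These are descriptions of letters in the annotated ends, and the part of such ends in the counts was not tested.

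The comparison of the lines asked which transcripts differ in the nuclei of the more metastatic cells. With the replicate number as a block, the edgeR quasi-likelihood test called 506 of 7197 genes at an adjusted p (Benjamini-Hochberg) under 0.05, which is 7.03%. Of these, 249 were higher in LM2 (3.46%) and 257 were lower (3.57%), and 244 of the 249 and 254 of the 257 moved the same way in 3 of 3 pairs. The median log2 change over all genes tested was 0.0090. Changes of at least 1 on the log2 scale (2-fold) were found in 117 genes called higher and 155 called lower, and changes of at least 4 in 14 and 5. The 3 LM2 libraries lay above all 3 Par libraries in 531 genes (7.38%) and below them in 671 (9.32%), called or not.

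These counts rested on the block. Without it, 28 genes were called, 15 higher and 13 lower, and all 28 were among the 506. The genes higher in the libraries numbered 2 held 88 of the 249 genes called higher and 3 of the 257 called lower, which leaves 161 and 254 outside the set. Median log2 change was 0.49 in the set and −0.045 in the others. A fit to only the genes within 2-fold between those libraries and the rest, added after the data were seen, called 213 higher and 267 lower.

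**Figure D2:**
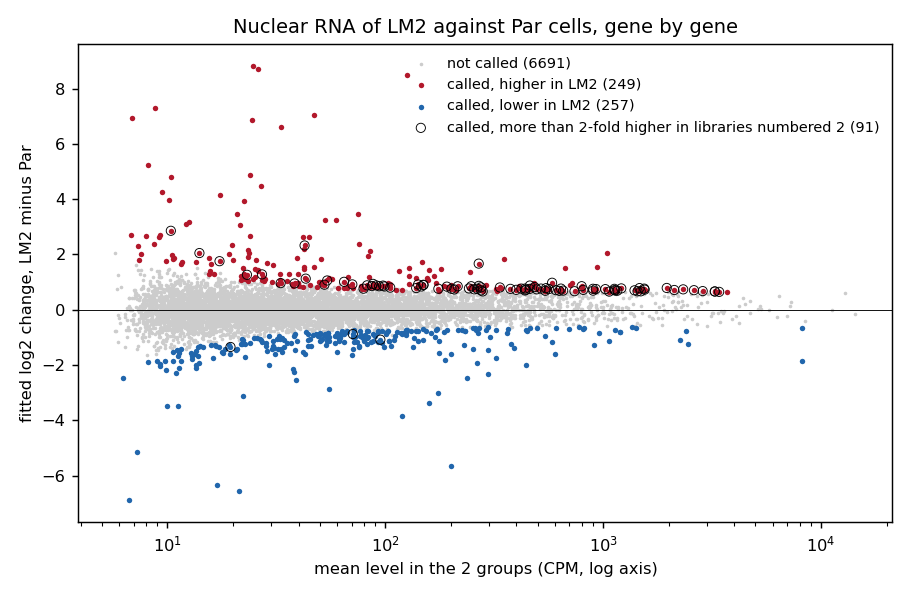
Fitted log2 change, LM2 minus Par nuclei (vertical axis), against the mean level of the gene in CPM (log axis) for the 7197 genes tested. Red and blue points are the 249 and 257 genes called higher and lower, and black rings mark the called genes more than 2-fold higher in the libraries numbered 2, most of which sit just above the grey band.

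Levels are given as CPM, counts per 1e6 after TMM scaling, for LM2 replicates 1, 2 and 3 and then Par replicates 1, 2 and 3. Changes are log2 values ± SE of the edgeR fit, each group with n = 3 libraries. Where a line had 3 reads or fewer over its 3 libraries, the ratio of pooled counts is given instead. It carries an exact 95% interval, which covers counting error only, or, where the line had none, a lower bound computed against 3 reads over the group.

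The 12 leading rises included genes nearly silent in Par nuclei. IL13RA2 (chromosome X, 115003975–115019977), a decoy receptor for interleukin 13 on earlier lists of lung metastasis genes, was at 59.0, 39.7 and 49.0 CPM in LM2. It had no read in the 3 Par libraries, so it was at least 57.0-fold higher. CD70 (chromosome 19, 6583183–6604103), a ligand of the tumour necrosis factor family, was at 15.6, 81.7 and 58.4 CPM against no read, at least 61.0-fold higher. CSF3 (chromosome 17, 40015361–40017813), which encodes the granulocyte growth factor G-CSF, was the most abundant of the 12 at 220.5, 284.6 and 251.0 CPM against 0, 1.14 and 0.833 CPM. The CSF3 ratio was 436-fold with an interval of 120.4 to 3609, from 816 reads against 2. In all 3 genes every LM2 library lay above every Par library.

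COL1A1 and MMP1 were the members of the matrix and protease list among the same 12 genes. FKBP10, which encodes a collagen-folding enzyme of the endoplasmic reticulum, was at 50.1, 105.0 and 124.8 CPM against 0, 1.14 and 0.833 CPM (ratio 172, interval 47.1 to 1424). COL1A1, the alpha 1 chain of type I collagen, was at 28.95, 59.5 and 57.7 CPM against 0, 0 and 0.833 CPM (ratio 174, interval 30.9 to 6928). Both genes were lowest in LM2 replicate 1, and even that library was far above Par. MMP1, an interstitial collagenase, rose from 0, 3.42 and 2.5004 CPM to 35.6, 28.0 and 35.6 CPM (4.16 ± 0.52, adjusted p = 7.8e-08). PAPPA2, a protease of insulin-like growth factor binding proteins, was at 16.7, 29.2 and 14.8 CPM against 0.717, 0 and 0.833 CPM (ratio 33.2, interval 8.80 to 279.9). METRNL, a secreted protein, rose by 4.47 ± 0.44 from a Par mean of 2.11 ± 2.08 CPM (SD).

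The transcription factor gene TFAP2C, which encodes AP-2 gamma, rose from 9.32, 12.5 and 14.2 CPM to 98.0, 191.3 and 125.5 CPM (3.46 ± 0.28, adjusted p = 9.0e-13). The 2 groups did not overlap. MAGEB2, a cancer-testis gene, rose by 4.88 ± 0.51 to 50.1, 39.7 and 48.3 CPM. The other 2 of the 12 are noncoding and are given with that group. Without the block, CD70, MMP1, METRNL and MAGEB2 were not called.

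CLDN4 was the member of the epithelial junction and keratin list among the 12 leading falls. The gene (chromosome 7, 73799542–73832693), which encodes the tight junction protein claudin-4, was at 11.1, 6.999 and 6.04 CPM in LM2 against 402, 344 and 435 CPM in Par (−5.65 ± 0.30, adjusted p = 3.2e-19). It was the most abundant in Par of the falls larger than 5 on the log2 scale. AGR2, a protein disulfide isomerase of secretory epithelia, had 1 read in LM2 against 119 in Par (ratio of Par to LM2 111, interval 19.6 to 4431). TNS4, a focal adhesion protein of the tensin family, had 1 read against 150 (ratio of Par to LM2 140.2, interval 24.8 to 5576). Levels of TNS4 in Par were 56.7, 42.2 and 28.3 CPM.

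MXRA8, a cell surface protein of the immunoglobulin superfamily, was even across Par at 222, 225 and 224 CPM and fell to 21.2, 14.0 and 12.8 CPM (−3.83 ± 0.27, adjusted p = 1.1e-14). BST2, which encodes tetherin, an interferon-induced membrane protein, fell from 328, 312 and 295 CPM to 28.95, 43.2 and 42.96 CPM (−3.02 ± 0.24). S100A4, a calcium-binding protein linked to cell motility and often named a metastasis gene, fell from 450.4, 480.2 and 555 CPM to 92.4, 85.2 and 115 CPM (−2.34 ± 0.22, adjusted p = 3.2e-11). In each of these 3 genes the groups were separated by more than the whole range of either.

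SERINC2 (−2.47 ± 0.22), a membrane protein of the serine incorporator family, fell from a mean of 403 ± 89.1 CPM to 71.9 ± 4.63 CPM. VAMP8 (−2.87 ± 0.31), a SNARE protein of endosomes and secretion, fell to 3.34, 19.8 and 17.5 CPM from 81.0, 87.8 and 120 CPM. GALNT18 (−3.47 ± 0.59), a glycosyltransferase, C4BPB (−3.13 ± 0.42), a chain of a complement inhibitor, and VSTM2L (−2.56 ± 0.30) were all below 16 CPM in LM2. SPANXB1 (−3.38 ± 0.25) is 1 of a family of near-identical cancer-testis genes on the X chromosome. All of its counts lie in entries with fractional estimates, so reads may be split among copies and its value is uncertain. GALNT18, C4BPB and VAMP8 were not called without the block, nor was GALNT18 without replicate 1.

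**Figure D3:**
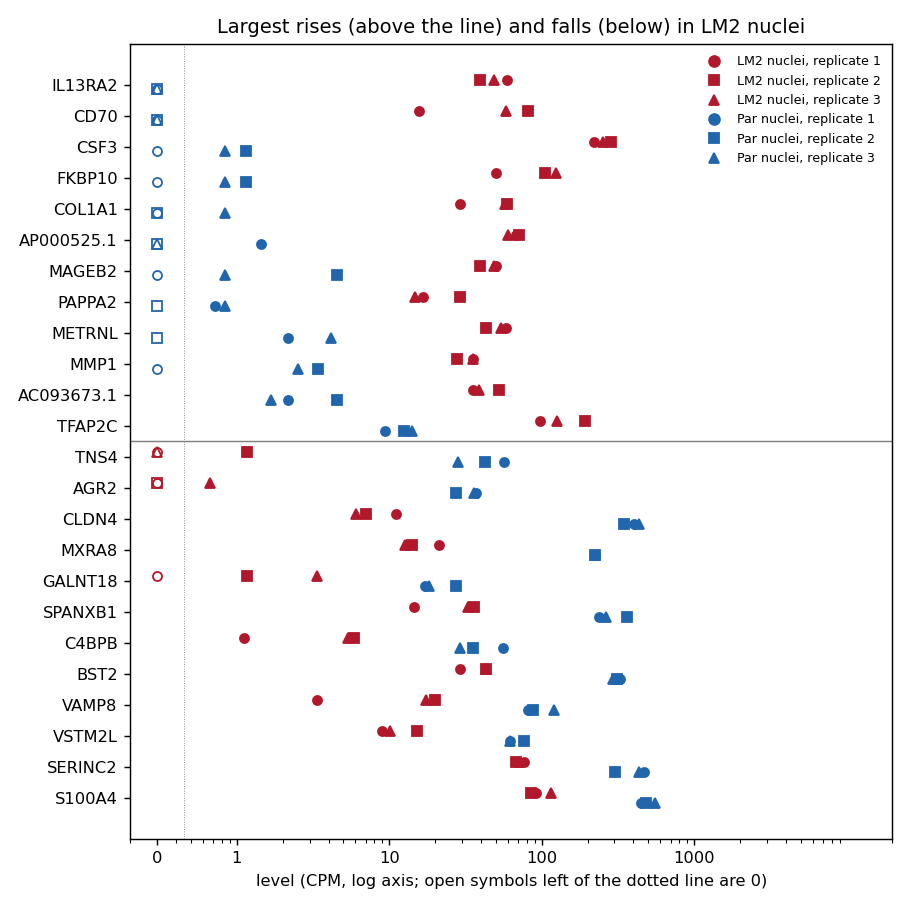
Level in CPM (log axis, with zeros as open symbols left of the dotted line) of the 12 largest rises and 12 largest falls in each of the 6 nuclear libraries. Red symbols are LM2 and blue are Par, shaped by replicate number, and the 2 colours do not overlap in any row, which the choice of these genes required.

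Gene lists of pathways and cell types were described by counts, beside 3.46% higher and 3.57% lower over all genes tested. The 29 lists held 375 genes that passed the expression filter, of which 23 were called higher (6.13%), 31 lower (8.27%) and 321 were not called. The lists and members were chosen with earlier results known, so these shares are descriptions. Of the 20 lists with a call, 8 had one without the replicate block, 16 with DESeq2, and 14, 19 and 16 without replicates 1, 2 and 3.

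Of the 11 measured genes on the list of earlier lung metastasis genes, 5 were called higher, 2 lower and 4 were not called, with a median log2 change of 0.46. Beside IL13RA2 and MMP1, PTGS2, the inducible cyclooxygenase, rose from 2.15, 1.14 and 10.0015 CPM to 45.7, 34.99 and 34.9 CPM (3.08 ± 0.43, adjusted p = 1.1e-06). COL6A1, a chain of type VI collagen, rose from 97.5, 87.8 and 100.015 CPM to 270.6, 201.8 and 325 CPM (1.47 ± 0.22, adjusted p = 3.9e-06). FSCN1, an actin-bundling protein, rose by 1.21 ± 0.21. The 2 falls were in ID3 (−1.33 ± 0.23) and ID1 (−0.69 ± 0.21), inhibitors of bHLH transcription factors that stand on the list as genes of metastatic growth. FSCN1, ID1 and ID3 were named after their values were seen. The ID1 libraries overlapped between the lines, at 1011, 441 and 462 CPM in LM2 and 1245, 720 and 959 CPM in Par, though each pair fell. ANGPTL4, another gene of such lists, was at 176 ± 8.21 against 157 ± 30.8 CPM and was not called. Without the block the list had 1 gene called higher and 0 lower, and with DESeq2 2 and 1.

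Among 25 measured genes of matrix, proteases and their inhibitors, 7 were called higher and 3 lower, with a median of 0.23. All 7 rises were of collagen chains or MMP1: COL1A1, MMP1, COL6A1, COL6A2 (1.22 ± 0.35), COL6A3 (1.11 ± 0.33), COL7A1 (1.20 ± 0.24) and COL13A1 (0.75 ± 0.21), of which the last 4 were named after their values were seen. The 3 genes called lower were MXRA8, CTSD and TIMP3. CTSD, which encodes the lysosomal protease cathepsin D, was among the most abundant RNAs, at 3716, 3229 and 3633 CPM in LM2 against 13678, 11176 and 13451 CPM in Par (−1.85 ± 0.20, adjusted p = 2.0e-09). TIMP3, an inhibitor of matrix metalloproteinases, fell from 623, 391 and 479 CPM to 200.4, 130.6 and 118 CPM (−1.75 ± 0.21). Without the block 1 gene of the list was called higher and 1 lower, and 3 were called higher with DESeq2 and also without replicate 1, 4 without replicate 3.

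Epithelial junction and keratin genes were called lower in 6 of 10 measured members and higher in 1, with a median of −0.94. KRT19, a keratin of simple epithelia, was at 163, 176 and 196 CPM against 671, 652 and 798 CPM (−1.99 ± 0.21, adjusted p = 1.1e-09). KRT7 fell by 1.40 ± 0.22 on the log2 scale and JUP, the junction protein plakoglobin, by 1.14 ± 0.26, and KRT8 and KRT80 were called lower as well. SDC1, a cell surface proteoglycan, was the 1 member called higher (0.89 ± 0.20). Without the replicate block, 2 of the 6 falls remained called and SDC1 did not, and DESeq2 called 3 lower, as did the fit without replicate 1. The KRT7 span overlaps that of KRT86 on the same strand.

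The mesenchymal list had 1 call. Of 7 measured members, S100A4 was called lower and none higher, with VIM, which encodes vimentin, at 1023 ± 440.1 against 1219 ± 366 CPM (−0.29 ± 0.20) and ZEB1 at −0.0027 ± 0.29. Integrin genes gave 1 call of 9, ITGB2 (−1.12 ± 0.23), the beta chain of leukocyte integrins. In the Arp2/3 complex, which nucleates branched actin, 1 of 8 genes was called. ARPC1B was at 111, 60.7 and 81.2 CPM against 299, 284 and 291 CPM (−1.81 ± 0.22, adjusted p = 6.3e-08), while its paralog ARPC1A was at 66.2 ± 8.93 against 68.2 ± 2.80 CPM. The ARPC1B span overlaps PDAP1 on the opposite strand. Neither ITGB2 nor ARPC1B was called without the block, and ITGB2 was not called without replicate 3.

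Genes on the list of NF-kB cytokines and feedback rose in 3 of 10 measured members, with none called lower and a median of 0.52. Beside CSF3 and PTGS2, IL11, a cytokine of the interleukin 6 family, rose from 315.5, 372 and 318 CPM to 664, 1298 and 1029 CPM (1.52 ± 0.21, adjusted p = 8.7e-07). The 3 LM2 libraries all lay above Par. Interferon-stimulated genes went the other way where they were called: BST2 and ISG15 (−0.85 ± 0.22) of 12 measured, with a median of −0.33. ISG15 was not called by DESeq2, without the block or when any 1 replicate was left out. Without the block CSF3 was the 1 call left on the NF-kB list.

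The EGFR list had 5 measured members, of which 3 were called lower and none higher. EGFR itself, the epidermal growth factor receptor, was at 76.8, 71.2 and 120.2 CPM against 240.2, 135 and 172 CPM (−1.01 ± 0.23, adjusted p = 0.0034). Its ligand AREG was at 21.2, 8.17 and 7.38 CPM against 61.7, 33.1 and 44.2 CPM (−1.996 ± 0.32). ERRFI1, a feedback inhibitor of the receptor, fell by 1.31 ± 0.33 on the log2 scale. The ligands HBEGF and TGFA were not called. The groups did not overlap in the 3 called genes, but none of them was called without the block, 1 was by DESeq2, and without replicate 1 only AREG was.

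Immediate early genes divided within 1 family. Of 13 measured, the MAP kinase phosphatase genes DUSP1 (1.40 ± 0.32) and DUSP5 (0.81 ± 0.26) were called higher, and DUSP6 (−0.96 ± 0.23) and DUSP4 (−0.74 ± 0.21) lower. None of the 13 was called by DESeq2 or without the block, and DUSP4, DUSP5 and DUSP6 were not called when any 1 replicate was left out. Of 12 YAP target genes, PTPN14 (0.87 ± 0.24), a phosphatase that restrains YAP, was called higher and ANKRD1 (−0.96 ± 0.20), a nuclear cofactor, lower. DUSP1 was lower in both libraries numbered 2, and ANKRD1 higher in both. DUSP1, PTPN14 and ANKRD1 were not called without the block or without replicate 1, and PTPN14 was not called by DESeq2.

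Metabolic genes moved singly. In glycolysis and hypoxia, 2 of 18 were called higher and 2 lower. ADM, the hypoxia-induced peptide adrenomedullin, rose from 15.8, 16.0 and 11.7 CPM to 53.4, 102.7 and 55.0 CPM (2.21 ± 0.29), and HK1, a hexokinase, by 0.98 ± 0.20. SLC2A1, the glucose transporter GLUT1, fell from 463, 403 and 433 CPM to 190.4, 120.1 and 162 CPM (−1.47 ± 0.21, adjusted p = 1.7e-06), and PGK1 fell by 1.35 ± 0.38 with overlapping libraries. In serine synthesis and the integrated stress response, 3 of 22 were called higher and none lower. PHGDH, the first enzyme of serine synthesis, was at 20.04, 18.7 and 27.5 CPM against 2.87, 0 and 4.17 CPM (3.10 ± 0.53, adjusted p = 4.8e-05), CEBPB rose by 1.44 ± 0.22 and DDIT4 by 0.74 ± 0.21. None of these metabolic genes was called without the block, and without replicate 1 HK1, PGK1, PHGDH and DDIT4 were not called. With DESeq2, 1 of the 22 genes of serine synthesis and the integrated stress response was called.

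In cholesterol synthesis and uptake, 4 of 22 measured genes were called lower and none higher, with a median of −0.22. SREBF1, a transcription factor of lipid synthesis, fell by 1.53 ± 0.27 on the log2 scale, and CYP51A1, an enzyme of sterol synthesis, by 0.75 ± 0.23. None of the 4 was called without the block or without replicate 1. The CYP51A1 libraries overlapped between the lines, and CYP51A1 was not called by DESeq2 or when any 1 replicate was left out. SREBF1 was not called without replicate 3. Cell cycle genes gave no call in 27. Their members with the smallest p were MCM7 (−0.56 ± 0.22) and RRM2 (−0.59 ± 0.25). The cell cycle median was −0.025, and 0.0078 with median-of-ratios size factors.

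Genes of nuclear RNA handling were nearly without calls. Cleavage and polyadenylation factors gave 1 of 24, the cytoplasmic poly(A)-binding protein gene PABPC4 (−1.20 ± 0.32), whose libraries overlapped. The hnRNP genes gave 1 of 24, HNRNPF, at 392, 244 and 354 CPM against 701, 424 and 576 CPM (−0.78 ± 0.20, adjusted p = 0.011). Neither was called without the block, without replicate 1 or without replicate 3. SR protein genes gave none of 14, where TRA2B was at −0.70 ± 0.26 and SRRM1 at −0.68 ± 0.26. RNA export and surveillance genes gave none of 19 (THOC2 −0.61 ± 0.22, NCBP2 −0.91 ± 0.45), but THOC2 was called lower by the edgeR fit to 12 libraries with the block (adjusted p = 0.0478). RNA polymerase II and elongation genes gave none of 30 (HEXIM1 −0.71 ± 0.28, POLR2D 0.67 ± 0.29). RNAs known to be retained in nuclei gave none of 9, with MALAT1 at 13.5 ± 1.55 against 19.4 ± 8.64 CPM, PNISR at 0.36 ± 0.24 and CCNL2 at −0.41 ± 0.30. A list without a call is not shown to be unchanged: on simulated data the test found 45.2% of genes changed by 1 on the log2 scale and 96.8% of those changed by 2. The simulation took the pairing by replicate number and the spread of the block fit as true, so it may overstate the power.

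Mitochondrially encoded genes gave 1 call of 12, MT-ND6 (1.08 ± 0.22), which was not called without the block. This gene is read from the opposite strand to most mitochondrial mRNAs, and all its counts lie in entries with fractional estimates. Cytosolic ribosomal protein genes gave 1 of 25, RPS23 (1.18 ± 0.32), which was not called without the block, without replicate 1 or without replicate 2.

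**Figure D4:**
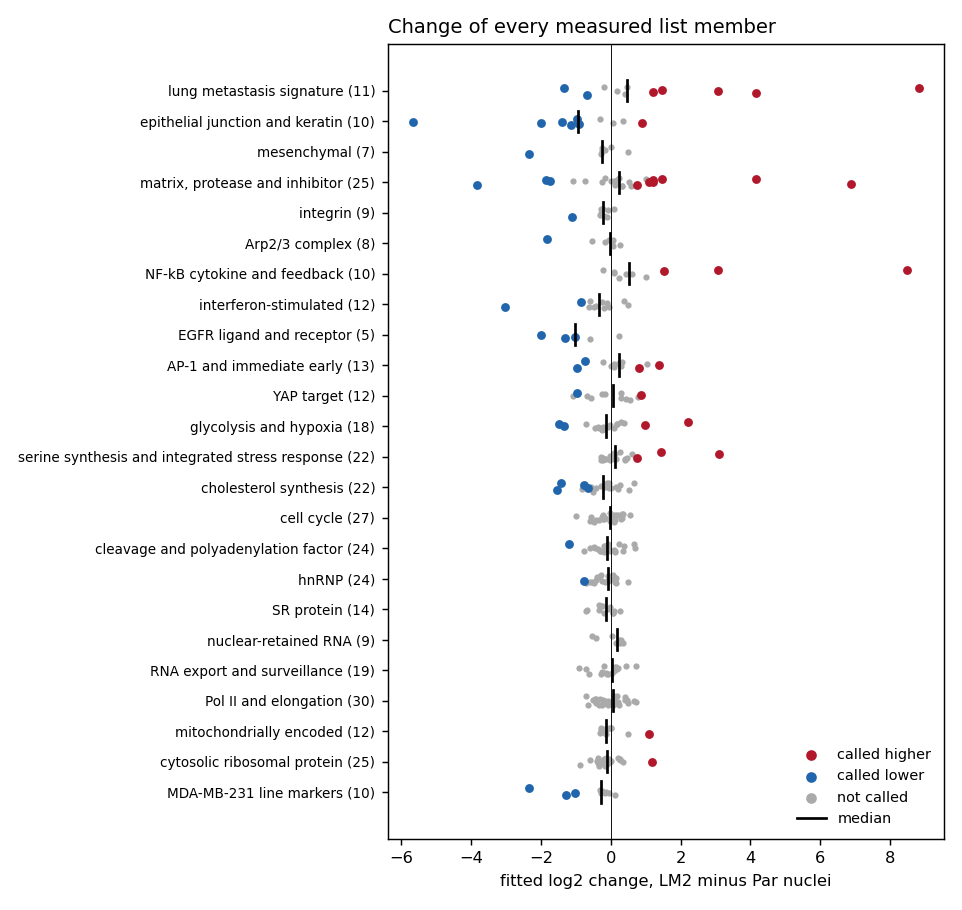
Fitted log2 change, LM2 minus Par nuclei (horizontal axis), of every measured member of 24 lists with at least 5 measured members, whose number is in brackets. Red and blue points were called higher and lower, grey points were not called and black bars are medians, of which the epithelial (−0.94) and EGFR (−1.01) lists lie lowest.

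Markers were checked against the labels. All 10 marker genes of the MDA-MB-231 line, such as AXL, CD44 and LGALS1, were measured in both groups, with summed levels of 5084 to 7634 CPM in LM2 and 7084 to 8658 CPM in Par. Of the 10, S100A4, EGFR and CAV1 were called lower. CAV1, the caveolae protein, was at 616, 433 and 548 CPM against 1363, 1075 and 1394 CPM (−1.27 ± 0.20). It was not called without the block. The receptor genes ESR1 and PGR and the luminal factor FOXA1 were at 0 in all 6 libraries. GATA3, another luminal factor, was at 12.4 ± 6.82 against 13.5 ± 5.56 CPM. Of the 11 immune markers 7 were at 0, PTPRC and CD3E among them, and the level without CD68 summed to 2.01 to 7.79 CPM in LM2 and 0.717 to 5.70 CPM in Par. CD68, a lysosomal glycoprotein of macrophages and other cells, was at 22.9 ± 3.54 against 41.4 ± 18.1 CPM and was not called. Fibroblast markers other than COL1A1 summed to at most 2.33 CPM, with COL3A1, DCN, LUM and PDGFRA at 0 in every library. No endothelial marker had more than 3 reads over the 6 libraries.

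Noncoding genes rose more often than they fell. Of 389 long noncoding genes tested, 36 were called higher and 2 lower, with a median log2 change of 0.50, and of 142 pseudogenes 11 were higher and 2 lower. In either direction these are 9.77 and 9.15%, beside 7.03% of all genes tested. However, 31 of the 36 belonged to the set that was more than 2-fold higher in the libraries numbered 2. That set held 301 of the 389 long noncoding genes. Over its 886 genes of all kinds, 88 were called higher and 3 lower, so the rise was not particular to noncoding genes. Of the 36, 32 had more than 50% of their counts in entries with fractional estimates. AL136115.2, 1 of the 31, was at 65.7, 668 and 216 CPM against 0, 611 and 49.2 CPM (1.67 ± 0.37, adjusted p = 0.0021), with overlapping groups. It was not called without the block, by DESeq2 or without replicate 1, and its span overlaps PTP4A2 on the same strand.

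The leading noncoding calls outside that set did separate the lines. AP000525.1, an RNA within DUXAP8 on chromosome 22, was at 67.9, 71.2 and 59.7 CPM against 1.43, 0 and 0 CPM (ratio 113, interval 30.9 to 938). DUXAP8 itself (ENSG00000206195.10) was at 14.5, 17.5 and 9.40 CPM against no read, at least 14.97-fold higher. All counts of AP000525.1 and 17.6% of those of DUXAP8 lie in fractional entries. The 2 genes overlap on the same strand, so their values may not be independent, but whether they share reads was not tested. DUXAP8 was not called without the block. AC093673.1, an antisense RNA on chromosome 7, rose from 2.15, 4.56 and 1.67 CPM to 35.6, 52.5 and 38.9 CPM (3.93 ± 0.43, adjusted p = 2.8e-09).

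SLCO4A1-AS1, antisense to the organic anion transporter gene SLCO4A1, rose from 12.9, 10.3 and 13.3 CPM to 111, 57.2 and 61.8 CPM (2.62 ± 0.30). Whether the counts used strand is not given in the sources used here, so its reads may not be separable from those of SLCO4A1. The lincRNA LINP1, known for a part in DNA repair, rose by 1.13 ± 0.25 and was not called without the block or without replicate 3. MANCR, a lincRNA, fell by 1.43 ± 0.31 on the log2 scale to 14.5, 18.7 and 14.1 CPM from 25.1, 69.6 and 39.2 CPM. It was not called by DESeq2, without the block, without replicate 1 or without replicate 2. The pseudogene GOLGA6L3 rose by 1.75 ± 0.40, with overlapping groups and a higher level in both libraries numbered 2, and is 1 of a family of near-identical copies. It was not called without the block or without replicate 1.

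HNRNPC, the hnRNP protein knocked down elsewhere in the series, was at 1548, 802.5 and 887 CPM in LM2 nuclei and 1279, 978 and 1256 CPM in Par nuclei (−0.17 ± 0.20, adjusted p = 0.72). The groups overlapped, and the sign turned without replicate 3 (0.020). PDLIM5, a scaffold protein of the actin cytoskeleton, was at 330, 3171 and 645 CPM against 169, 2927 and 349 CPM (0.64 ± 0.21, adjusted p = 0.052). TUBD1, which encodes delta-tubulin, was at 2734, 31899 and 6362 CPM against 1553, 31372 and 3332 CPM (0.59 ± 0.20, adjusted p = 0.071). Both were higher in LM2 within each pair, and neither was called in the 6 nuclear libraries. The edgeR fit to 12 nuclear and cytoplasmic libraries with the block called both in nuclei, with adjusted p = 0.0125 for PDLIM5 and 0.0134 for TUBD1. Their levels followed the libraries numbered 2 more than the lines, and at least 95.4% of the counts of each lie in fractional entries.

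Use of poly(A) sites within a gene was compared at the 2 most used sites, as log2 of distal over proximal reads, which does not depend on the level of the gene. None of 654 genes was called by edgeR (0%), and limma called 0 as well. At an unadjusted p under 0.05 there were 47 genes (7.19%), 27 with more distal use in LM2 and 20 with more proximal use, and the smallest adjusted p was 0.39. The groups did not overlap in 27 genes with more distal use in LM2 (4.13%) and 19 with more proximal use (2.91%). The median change over the 654 genes was 0.025 with a median SE of 0.42. Median distal use was 59.9, 54.6 and 56.0% in LM2 and 58.8, 53.8 and 57.7% in Par, so the lines overlapped and both libraries numbered 2 were lowest.

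The 8 genes with the smallest p were not called. Distal use of ANKRD1 was 95.5, 96.7 and 96.5% in LM2 against 88.1, 91.7 and 92.2% in Par (1.35 ± 0.30). CHD4, a chromatin remodelling ATPase, went toward its proximal site, with 13.2, 14.4 and 10.1% distal use against 37.3, 26.6 and 28.1% (−1.64 ± 0.37). NGRN was at 53.3, 43.9 and 43.6% against 74.7, 63.7 and 66.3% (−1.30 ± 0.30). In these 3 genes the libraries did not overlap between the lines. The other 5, DPP9 (−1.21 ± 0.30), RAD1 (2.26 ± 0.58), UBE3C (−1.27 ± 0.33), P3H4 (1.35 ± 0.38) and ENOX2 (1.55 ± 0.44), overlapped. Distal use of DPP9 was 0.996 and 1.88% in the libraries numbered 2 and 2.62 to 18.4% in the others. PDLIM5 was at 23.5, 1.40 and 8.65% against 23.2, 0.703 and 9.71% (0.23 ± 0.32), higher in LM2 in 2 of 3 pairs. In simulations, site use was found in 54% of genes changed by 1 and 94% of those changed by 2, with an assumed spread that may overstate the power.

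Whether the difference between the lines depended on the fraction was tested in all 12 nuclear and cytoplasmic libraries of the lines. The 24 leading genes were all called in the same direction in the cytoplasm, 12 higher and 12 lower, and the difference between fractions was called for none. Equal effects are not shown by this, since the test was imprecise for genes near 0 in 1 line. The SE of the difference was 2.67 for AP000525.1, 1.72 for AGR2, 1.62 for COL1A1 and 1.54 for CD70, but 0.22 for S100A4. For IL13RA2, with no read in Par in either fraction, that difference could not be estimated. In that fit 373 genes were higher in LM2 nuclei and 962 in LM2 cytoplasm. The 244 called in both are 65.4% of the nuclear and 25.4% of the cytoplasmic calls. Of 338 and 1162 genes called lower, 236 were shared, 69.8 and 20.3%.

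The effect itself differed between fractions in 85 of 8546 genes (0.995%), in 81 (0.948%) with a greater, that is more positive, value in nuclei and in 4 (0.0468%) with a greater value in the cytoplasm. In the 81, the median log2 change was −0.022 in nuclei and −1.44 in cytoplasm. All 81 were below 0 in the cytoplasm, 79 of them called lower there, and 67 were not called in nuclei. Over all genes, this 12-library fit called 711 (8.32%) in nuclei and 2124 (24.9%) in cytoplasm, in either direction. The cytoplasmic libraries were deeper, at 1.584 to 2.305 M counts against 0.798 to 1.351 M in nuclei. The part of depth in these numbers of calls was not tested. The choline kinase gene CHKA shows the pattern. It was at 316, 160 and 158 CPM in LM2 nuclei against 289, 190.2 and 212 CPM in Par nuclei, and at 19.9, 25.4 and 12.005 CPM in LM2 cytoplasm against 87.1, 131 and 41.8 CPM in Par cytoplasm (difference 1.96 ± 0.27, adjusted p = 0.0010). ARPC1B was among the 81, with a log2 change of −1.80 in nuclei and −3.16 in cytoplasm (difference 1.36 ± 0.30, adjusted p = 0.030). The split was 44 and 27 of 71 genes with median-of-ratios size factors, no gene was called without the replicate block or without replicate 1, and 1 was called without replicate 2.

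Called genes were spread unevenly over the chromosomes, which was looked at after the calls were made. On chromosome 15, 26 of 214 tested genes were called higher (12.1%) and 1 lower, and 19 of the 26 lay among the 70 tested genes between 75 and 100 Mb, where the median log2 change was 0.56. On chromosome 7, 8 of 343 were higher and 40 lower (11.7%), with a median of −0.22 and CLDN4, ARPC1B, CAV1 and EGFR among the falls. On chromosome 1, 18 of 745 were higher and 55 lower (7.38%), of which 21 lay below 25 Mb and 15 between 25 and 50 Mb. On chromosome 16, 7 of 350 were higher and 2 lower. Copy number was not measured here.

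**Figure D5:**
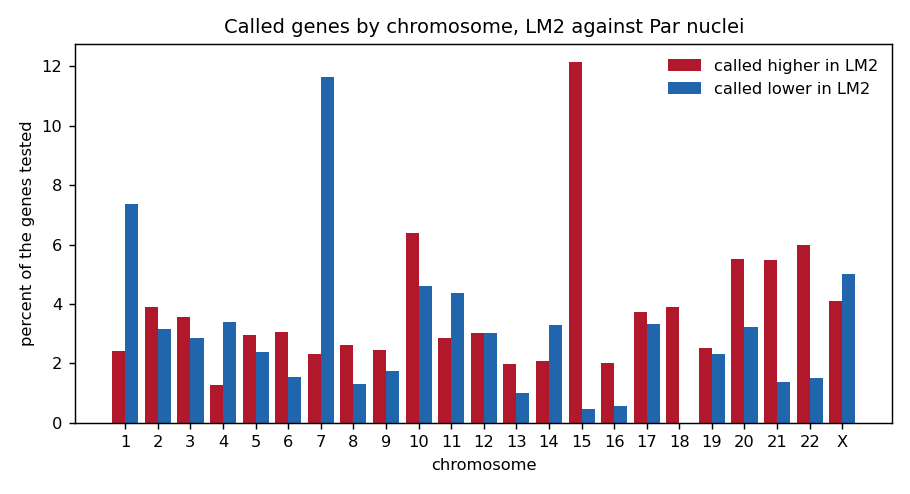
Percent of the tested genes of each chromosome (vertical axis) called higher (red) or lower (blue) in LM2 nuclei, for the autosomes and X. Chromosome 15 has the highest share called higher (12.1%) and chromosome 7 the highest called lower (11.7%), against 3.46 and 3.57% over all genes.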

How the data were processed

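Per the labels, RNA was extracted from nuclear and cytoplasmic fractions and sequenced with QuantSeq REV. The authors deposited 1 table of expected counts for 94924 entries (71604 transcript ends, 23320 genomic positions) in 12 libraries; the submitters' processing notes name Salmon 0.14.1 and hg38. Of the transcript ends, 66115 matched GENCODE 29 (GRCh38), the source of gene coordinates and end sequences. A position entry belongs to the transcript listed above it. Positions did not lie on the GENCODE spans, so no sequence or coordinate of a position is given. Unmatched entries held 1.18 to 1.90% of nuclear reads, but 3.75 and 3.48% in the libraries numbered 2. Of nuclear values above 0, 91.3 to 93.9% were whole (within 1e-09). The others, fractional estimates, held 46.3 and 43.6% of counts in the libraries numbered 2 (LM2, Par) and 9.20 to 18.1% in the other 4 nuclear libraries.

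Entries were summed per gene and rounded. edgeR 4.0.16 (quasi-likelihood, TMM, filterByExpr, R 4.3.3) tested 7197 genes in the 6 nuclear libraries with the replicate number as a block; Benjamini-Hochberg adjusted p under 0.05 was a call. Site use was the interaction of site and line at 2 sites with a mean of at least 10 counts, with a term for each library. In 410 of the 654 pairs a position was set against a transcript end. There the position was taken as proximal by rule, without comparing its coordinate, so that order is assumed. A further 181 genes of unknown site order were left out. The difference between fractions used 12 libraries, with the block within each fraction. The rule of the comparison pairs libraries by number. Deviations from the group means correlated within the pairs at 0.72, 0.83 and 0.20, though LM2 replicate 3 was marginally closer to Par replicate 1 (0.21). The biological coefficient of variation was 18.1% with the block and 48.8% without. Scripts were tested on simulated data. DESeq2 1.42.0 and limma 3.58.1 (log2 of CPM plus 1 or 5) were alternatives.

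Named genes are the 12 largest called rises and falls with at least 20 CPM in 1 group and no overlap, up to 4 called members of each list or the 2 with the smallest p, 8 genes of site use, 8 noncoding genes, 8 of the difference between fractions, and HNRNPC, PDLIM5 and TUBD1. The comparison, members and lists were chosen with earlier results of these data known. Counts limit precision, and intervals cover counting error only. Some named items are not reported here.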

Additional observations from a re-analysis of the deposited data

Results flagged for a closer look

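The effect of the line differed between nuclei and cytoplasm, by the edgeR test of the difference with adjusted p, in 85 genes. The 8 largest, as the log2 effect in nuclei minus that in cytoplasm, were RHOQP1 (7.47 ± 1.41), FAM156B (7.41 ± 1.78), DOCK9 (3.29 ± 0.80), IPMK (2.15 ± 0.41), WDR75 (2.07 ± 0.35), PAIP2 (2.01 ± 0.45), LIX1L (1.97 ± 0.42) and CHKA (1.96 ± 0.27). The first 2 rest on libraries at 0 and their fitted sizes are no bound. DOCK9 was also near the floor, at 1.28, 1.24 and 0 CPM in LM2 cytoplasm against 9.05, 14.4 and 4.40 CPM in Par cytoplasm. In nuclei it was at 22.1, 7.21 and 6.97 CPM in LM2 against 25.1, 3.46 and 9.94 CPM in Par. RHOQP1, a pseudogene that overlaps LRR1, was at 24.2, 0 and 0 CPM in LM2 nuclei, 19.4, 0 and 0 CPM in Par nuclei, 0 in LM2 cytoplasm and 0, 13.0 and 22.0 CPM in Par cytoplasm. FAM156B was at 7.38, 10.8 and 13.2 CPM in LM2 nuclei, 0 in Par nuclei, 7.69, 2.47 and 0 CPM in LM2 cytoplasm and 3.02, 4.80 and 4.95 CPM in Par cytoplasm. IPMK, an inositol phosphate kinase, was called higher in LM2 nuclei (1.01 ± 0.28) and lower in LM2 cytoplasm (−1.15 ± 0.29). WDR75, a factor of ribosomal RNA production, was at 99.0, 73.3 and 77.4 CPM in LM2 nuclei against 94.7, 73.8 and 89.4 CPM in Par nuclei, and at 5.12, 8.04 and 5.72 CPM in LM2 cytoplasm against 27.6, 39.8 and 17.1 CPM in Par cytoplasm. None of the 8 was called without the replicate block, without replicate 1 or without replicate 2.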

How the results depend on the processing

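The count of genes changed, 506 with the replicate block, was 28 with no replicate block, 188 over all 12 libraries with no replicate block, 172 at a mean of at least 50 counts, 159 with DESeq2 and 176 with transcript ends of the same GENCODE version only. Leaving out 1 replicate gave 106 to 557 genes: 106 without replicate 1, 557 without replicate 2 (359 higher and 198 lower) and 173 without replicate 3. At a mean of at least 50 counts the split was 51 higher and 121 lower. In the other 9 settings the count stayed within 1.5 times, from 385 to 724 (2 of the 9 were added after seeing the data: the fit to genes within 2-fold, 480, and to entries whole in every nuclear library, 471), and no gene called in any setting and in the 506 changed direction. Of 65 named called genes, 19 kept the call with no replicate block and 39, 56 and 49 without replicates 1, 2 and 3. With DESeq2, 11 lost it, and further genes such as DUSP1 were not called either, so the number kept there is not given. For the difference between fractions (85 genes) the count was 0 with no replicate block, 36 with limma, and 0 to 84 with 1 replicate left out. Site use had 0 calls in all 11 settings, with 15 to 73 genes at an unadjusted p under 0.05. Among uncalled genes the direction turned for PNISR (−0.048, same GENCODE version only) and, with 1 replicate left out, for GATA3 (−0.48 to 0.47), HNRNPC (−0.35 to 0.020) and site use of PDLIM5 (−0.080 to 0.47). The cause of these differences was not tested. Depth limits the lowest genes: 1 read was worth 0.671 to 1.17 CPM, and a group at 0 allows up to 3 reads.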

Other observations

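The 2 sets of ends called in opposite directions also differed in their annotated letters. A poly(A) signal (AATAAA or ATTAAA) stood in the last 30 bases of the most used end in 37.4% of 155 genes called higher in LM2 nuclei and in 71.5% of 130 called lower, against 58.2% of all 4029 genes with such an end. Of all 249 genes called higher, 35.3% were in the set more than 2-fold higher in the libraries numbered 2, whose ends hold a signal in 14.4%, against 1.17% of the 257 called lower. The part of that set in the difference was not tested beyond these counts.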
